A study of Mus musculus with 24 samples.

Results

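The miR-29 family was measured in mouse subcutaneous fat as its 3 mature 3p sequences, miR-29a-3p (MIMAT0000535), miR-29b-3p (MIMAT0000127) and miR-29c-3p (MIMAT0000536). They are 3 of the 1907 mature sequences in the table, chosen by their identifiers and not by any measured value, and they were counted at 4 loci because miR-29b-3p is encoded at 2 places, whose reads were summed. Small RNA was sequenced from female mice on a chow diet in 4 groups of 6 libraries: trained kinase dead, sedentary kinase dead, trained wild type and sedentary wild type. Training meant 1 hour on a motorised treadmill at 16 m/min, 5 times a week for 6.5 weeks, and running wheels were open to the animals throughout. Kinase dead denotes a kinase without catalytic activity. Which kinase this is, and the mice's strain and age, the labels do not say, nor do they give the promoter or cell type in which it is made. Whether each library stands for its own animal is likewise not stated, so every p-value measures the spread between libraries, which may be technical in part.

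A microRNA is a short RNA that guides Argonaute proteins to messenger RNAs, which it recognises mainly through its seed, the bases near its 5′ end. The miR-29 family is best known for repressing collagens, elastin and other matrix genes, and for repressing the DNA methyltransferases Dnmt3a and Dnmt3b and the Tet enzymes. In cultured fat cells, a raised miR-29 level lowers insulin-stimulated glucose uptake, and in several tissues the family falls when scar tissue forms.

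The sequences are shown because the members differ in a few bases only, and those bases decide which member a read is counted for. Letters in capitals mark bases 2 to 8, the seed. The sequences and positions are those of RefSeq on GRCm38.p6, the build (mm10) that the counts use.
miR-29a-3p: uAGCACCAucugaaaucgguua
miR-29b-3p: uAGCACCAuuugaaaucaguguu
miR-29c-3p: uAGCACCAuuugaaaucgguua
The seed AGCACCA occurs at bases 2 to 8 of 3 of the 1679 mature mouse sequences in RefSeq (0.179%), which are these 3. Counted from the 5′ end, miR-29a-3p and miR-29c-3p differ by a single substitution, C10U. Between miR-29b-3p and miR-29c-3p there are 3 substitutions, A18G, G21U and U22A, and miR-29b-3p has 1 extra base at its 3′ end. miR-29b-3p ends in AGUGUU, a stretch that in human cells was described as a signal for import into the nucleus. It closes 2 of the 1679 sequences, the other being miR-92b-5p. The 3 bases after the seed are UUU in miR-29b-3p and miR-29c-3p but not in miR-29a-3p, a feature reported in human cells to go with faster decay. UUU stands there in 24 of the 1679 sequences (1.43%).

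The family is made from 4 hairpins in 2 pairs. Mir29a (chr6:31062660-31062747, minus strand) and Mir29b-1 (chr6:31063023-31063093, minus strand) are separated by 275 bases. Mir29a lies in no other annotated gene, and Mir29b-1 overlaps the first exon of the lincRNA Gm27019 by 2 bases. Mir29b-2 (chr1:195037040-195037120, plus strand) and Mir29c (chr1:195037547-195037634, plus strand) are separated by 426 bases. Both lie in exon 3 of the noncoding transcript A330023F24Rik-204 and opposite the untranslated part of exon 11 of a Cd46 transcript (a complement regulator gene on the minus strand). The 5p arms, usually the short-lived strands of the duplex, differ between all 4 hairpins and so tell Mir29b-1 and Mir29b-2 apart, which miR-29b-3p cannot. They are shown with the same bases in capitals.
miR-29a-5p: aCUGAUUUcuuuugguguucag
miR-29b-1-5p: gCUGGUUUcauauggugguuua
miR-29b-2-5p: cUGGUUUCacaugguggcuuagauu
miR-29c-5p: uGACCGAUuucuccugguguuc

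Library totals ranged from 1601209 to 23593237 reads. The adipose list of 6 miRNAs, led by miR-143-3p, summed to between 120063 and 245161 CPM (read counts relative to the library total, scaled by TMM factors), and all 6 were detected. In 7 libraries the lymphocyte miRNA miR-150-5p exceeded 2000 CPM, and the 7 lymphocyte miRNAs listed summed to between 16576 and 25047 CPM, against 4007 to 6251 CPM in the other 17. These 7, called lymphocyte-rich here, were trained kinase dead replicates 3 and 6, sedentary kinase dead replicates 5 and 6, trained wild type replicates 1 and 2 and sedentary wild type replicate 1. In tissue libraries such as these, fewer cells of a type and less RNA per cell cannot be told apart. The smallest count of any member in any library was 389 reads of miR-29c-3p, with an exact Poisson 95% interval of 351 to 430 that covers counting error alone.

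miR-29a-3p made up most of the family in this fat. It averaged 13828 ± 4544 CPM, miR-29b-3p 1203 ± 857 CPM and miR-29c-3p 244 ± 96.1 CPM (SD, n = 24). That order held in 24 of 24 libraries. Among the 1907 mature sequences they ranked 17, 73 and 146 by mean CPM. The mature RNAs of the members have 22 or 23 bases, so CPM was not corrected for length, though the counts do not give the lengths of the reads. Ligation favours some ends over others, and the ratios between members may carry that bias. The family as a whole held between 0.812% and 2.88% of a library's reads, with a median of 1.49%.

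The 6 values of a group ranged widely for miR-29a-3p. In trained kinase dead libraries it lay between 8229 and 27051 CPM with a median of 11813, and in sedentary kinase dead libraries between 9741 and 20613 CPM with a median of 13061. Trained wild type libraries held between 8042 and 19899.9 CPM with a median of 11747, and sedentary wild type libraries between 10477 and 18058 CPM with a median of 15666. The 4 ranges overlapped throughout. Group means were 13559.7 ± 6844 CPM in trained kinase dead, 13690.1 ± 4035 CPM in sedentary kinase dead, 13365.5 ± 4694 CPM in trained wild type and 14696 ± 2925 CPM in sedentary wild type (SD, n = 6 each), so no neighbours in that order differed beyond their spread.

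miR-29b-3p varied the most of the 3 members. Trained kinase dead libraries held between 416 and 3223 CPM with a median of 579, and sedentary kinase dead libraries between 778 and 2965 CPM with a median of 1029. Trained wild type libraries held between 293 and 2603 CPM with a median of 610.04, and sedentary wild type libraries between 404 and 1699 CPM with a median of 1378. Trained kinase dead replicate 2 stood far above the rest of its group, which ended at 885 CPM, and sedentary kinase dead replicate 2 stood above companions that ended at 1227 CPM. The trained wild type group was split, with replicates 1 and 2, both lymphocyte-rich, at 2593 and 2603 CPM and replicates 3, 4, 5 and 6 at 587, 633, 346 and 293 CPM. Means were 1032 ± 1085 CPM in trained kinase dead, 1322 ± 823 CPM in sedentary kinase dead, 1176 ± 1109.5 CPM in trained wild type and 1282 ± 482 CPM in sedentary wild type (SD, n = 6 each), which lie within each other's spread.

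The scarcest member, miR-29c-3p, spanned 3.71-fold over the 24 libraries, between the 3.36-fold of miR-29a-3p and the 11-fold of miR-29b-3p. It lay between 145 and 479 CPM with a median of 200.2 in trained kinase dead libraries and between 143 and 462 CPM with a median of 231 in sedentary kinase dead libraries. It lay between 129 and 335 CPM with a median of 214 in trained wild type libraries and between 152 and 335 CPM with a median of 266 in sedentary wild type libraries. The highest value was again that of trained kinase dead replicate 2 and the next that of sedentary kinase dead replicate 2.

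**Figure D1:**
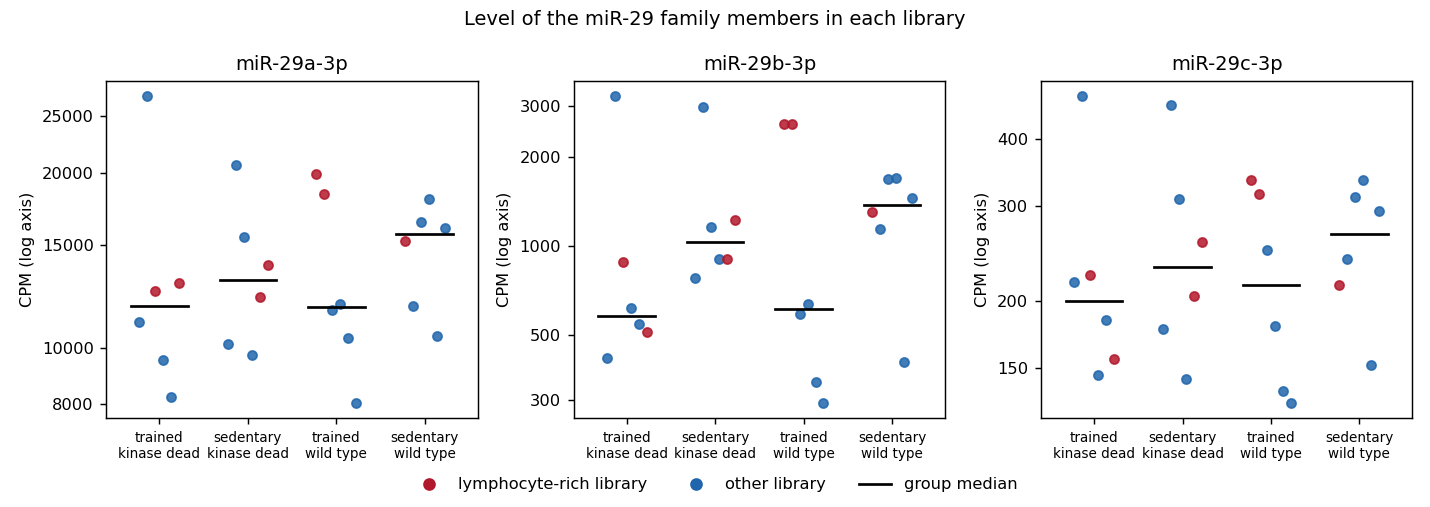
Points show single libraries, 6 in each group, against CPM on a log scale, with a bar at the group median and the 7 lymphocyte-rich libraries in red. The groups overlap for every member, miR-29b-3p runs from 293 to 3223 CPM, and the same library (trained kinase dead replicate 2) is highest in all 3 panels.

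The question the design poses is how training alters the miRNAs of this fat and whether the kinase matters for it. No member passed the test in any of the 6 comparisons. edgeR's quasi-likelihood test, adjusted by the Benjamini-Hochberg method over the 582 sequences that passed the filter on low counts, called 0 of the 3 members in each comparison, against a background of 0% of all 582. DESeq2 called 0 as well. At an unadjusted p under 0.05, edgeR had 31 sequences for training in wild type, 14 for training in kinase dead and 36 for training averaged over both genotypes, and DESeq2 had 38, 15 and 38. For the difference between the training effects, for genotype among sedentary mice and for genotype among trained mice the counts were 13, 7 and 4 by edgeR and 10, 6 and 9 by DESeq2. No member was among those of edgeR.

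In kinase dead mice, the log2 fold change of trained over sedentary was -0.01 for miR-29a-3p (SE 0.26, 95% interval -0.56 to 0.53), -0.36 for miR-29b-3p (SE 0.57, interval -1.54 to 0.82) and -0.15 for miR-29c-3p (SE 0.32, interval -0.80 to 0.51). All 3 had an adjusted p of 0.994 by edgeR. One of the 6 trained kinase dead libraries, replicate 2, lay above the sedentary kinase dead median for each member. Without it the log2 fold changes were -0.30, -1.11 and -0.45, each with adjusted p = 0.996 by edgeR, and without sedentary kinase dead replicate 2 that of miR-29b-3p was -0.042. In wild type mice, the log2 fold changes were -0.14 for miR-29a-3p (SE 0.26, interval -0.68 to 0.40), -0.12 for miR-29b-3p (SE 0.57, interval -1.30 to 1.05) and -0.20 for miR-29c-3p (SE 0.32, interval -0.86 to 0.45). Here 2 of the 6 trained libraries, replicates 1 and 2, lay above the sedentary wild type median for each member, and the adjusted p by edgeR was 0.977 for miR-29a-3p, 0.977 for miR-29b-3p and 0.968 for miR-29c-3p.

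Those 2 libraries are lymphocyte-rich. Without the 7 lymphocyte-rich libraries, the log2 fold change of training in wild type was -0.44 for miR-29a-3p, -1.42 for miR-29b-3p and -0.58 for miR-29c-3p, with adjusted p = 0.592, 0.344 and 0.557 by edgeR. In kinase dead mice the values without them were -0.04, -0.32 and -0.14, near those with all libraries. Among the lymphocyte-rich libraries alone the wild type groups hold 2 and 1 libraries, too few for a value of training. With a lymphocyte score as a covariate and all 24 libraries kept, miR-29b-3p had a log2 fold change of -0.38 for training in wild type. Trained wild type replicates 1 and 2 were thus both the lymphocyte-rich libraries of their group and its highest for each member. The part of lymphocyte content in the result was not tested beyond these fits. Depth also differed between the groups compared, as given below, and its part in these fold changes was not tested.

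No difference between genotypes was detectable within the spread of the libraries. Among trained mice, kinase dead over wild type gave log2 fold changes of 0.02 for miR-29a-3p (SE 0.26), -0.19 for miR-29b-3p (SE 0.57) and 0.06 for miR-29c-3p (SE 0.32). Among sedentary mice they were -0.10, 0.04 and 0.01 with the same standard errors. The difference between the training effects of kinase dead and wild type mice was 0.12 for miR-29a-3p (interval -0.64 to 0.89), -0.23 for miR-29b-3p (interval -1.90 to 1.43) and 0.06 for miR-29c-3p (interval -0.87 to 0.98). Adjusted p-values by edgeR in these 3 comparisons ran from 0.991 to 0.997. Without the lymphocyte-rich libraries, the direction for miR-29b-3p turned to 1.29 among trained mice and to 1.10 for the difference of the training effects, with adjusted p = 0.997 and 0.930 by edgeR.

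**Figure D2:**
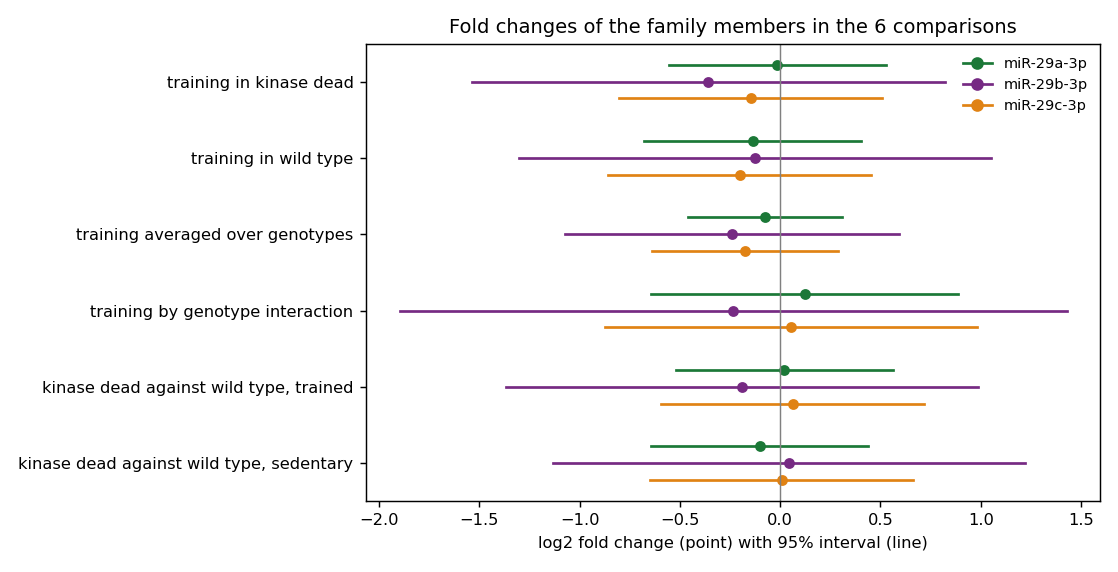
Points are log2 fold changes of the 3 members from edgeR and lines their 95% intervals, with 0 marked in grey, for trained over sedentary, kinase dead over wild type and the difference of the training effects (kinase dead minus wild type). Every interval crosses 0, and the intervals of miR-29b-3p are the widest, reaching from -1.90 to 1.43 for the difference of the training effects.

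Summed over its 3 members, the family averaged 14826 ± 8015 CPM in trained kinase dead, 15270.3 ± 4917 CPM in sedentary kinase dead, 14765 ± 5865 CPM in trained wild type and 16235 ± 3436 CPM in sedentary wild type (SD, n = 6 each). The SDs exceed every difference between these means. Without replicate 2, the trained kinase dead mean was 11640.4 CPM.

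The make-up of the family is a ratio within a library and does not depend on its depth or scaling. miR-29b-3p took 6.05% ± 2.5 of the family's reads in trained kinase dead and 8.21% ± 2.12 in sedentary kinase dead libraries. It took 6.66% ± 4.05 in trained wild type and 7.64% ± 2.0 in sedentary wild type libraries (SD, n = 6 each), a difference of -0.98 points that was -3.52 points without the lymphocyte-rich libraries (adjusted exact permutation p = 0.829 and 0.286). Over all libraries its share ran from 3.18% to 12.3%, a 3.88-fold range, and that of miR-29c-3p from 1.15% to 2.05%. miR-29a-3p held the rest, between 85.7% and 95.6%.

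Two-sided exact permutation tests of these shares, for each of the 3 members in 4 comparisons, gave no adjusted p under 0.829 over the 12 tests. The lowest raw values were those of training in kinase dead, where the share of miR-29b-3p was 2.16 percentage points lower in trained than in sedentary libraries (difference -2.16, exact permutation p = 0.143) and that of miR-29a-3p higher by 2.19 points (exact permutation p = 0.149). This comparison turned on a single library. Trained kinase dead replicate 2, at 10.48%, was the only trained kinase dead library above 6.48%, whereas the sedentary kinase dead libraries ranged from 6.76% to 12.3%. Without it, the difference was -3.04 points for miR-29b-3p and 3.07 points for miR-29a-3p, each with an adjusted exact permutation p of 0.026, and leaving out any other library gave no adjusted p under the threshold of 0.05. Leaving out the only overlapping library separates the 2 groups fully, so the permutation test then gives its smallest possible raw p. The shares of these 2 members nearly mirror each other, so they are 1 result. No conclusion on training is drawn from it.

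**Figure D3:**
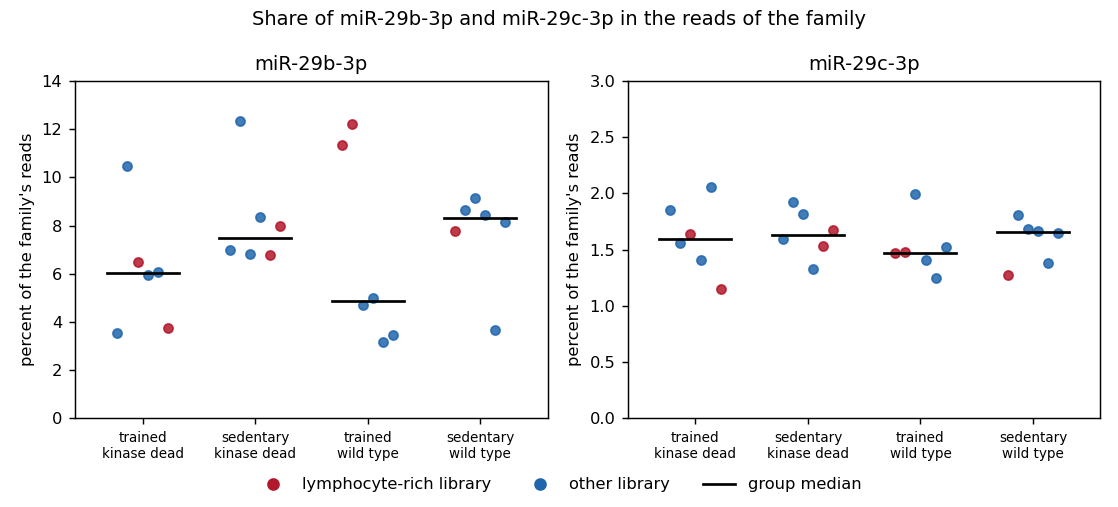
Each point is the percent of the 3 members' reads that belong to miR-29b-3p (left) or miR-29c-3p (right) in 1 library, with bars at the group medians, axes from 0 and lymphocyte-rich libraries in red. In trained kinase dead mice 5 points for miR-29b-3p lie at or below 6.48% and replicate 2 at 10.48%, while trained wild type replicates 1 and 2 lie at 11.4% and 12.2%.

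The 3 members rose and fell together from library to library. In the 17 libraries that are not lymphocyte-rich, log2 CPM of miR-29a-3p and miR-29b-3p had a Pearson r of 0.893 (permutation p = 1e-05, the smallest that 100000 permutations can give, adjusted p = 5.33e-05 over 16 relations) and a Spearman rho of 0.824 (permutation p = 0.00011). miR-29a-3p and miR-29c-3p had r = 0.931 and rho = 0.900, and miR-29b-3p and miR-29c-3p r = 0.889 and rho = 0.836, with adjusted permutation p-values of 5.33e-05 for either r. Leaving out the 2 libraries farthest from the median of the first member gave r = 0.811, 0.886 and 0.799. In the 7 lymphocyte-rich libraries r was 0.907, 0.825 and 0.959 and rho 0.821, 0.750 and 0.786 for the same pairs (adjusted exact permutation p = 0.0152, 0.0448 and 0.0127 for r, and 0.0779, 0.118 and 0.096 for rho), but without the 2 farthest libraries r was 0.616, 0.292 and 0.902, so there the relation of miR-29a-3p to miR-29c-3p rests on those 2. CPM values of a library share its total and scaling factor. Reads of miR-29a-3p miscounted as miR-29c-3p, which differs by 1 base and is far scarcer, would also tie these 2 together. The counts cannot measure such miscounting.

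The members did not move by the same amount. For each doubling of miR-29a-3p, log2 miR-29b-3p rose by 1.92 and log2 miR-29c-3p by 1.16 in the 17 libraries. Libraries with more of the family were therefore richer in miR-29b-3p, as the shares show. The 4 libraries with the most miR-29b-3p were also the 4 with the most miR-29a-3p.

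**Figure D4:**
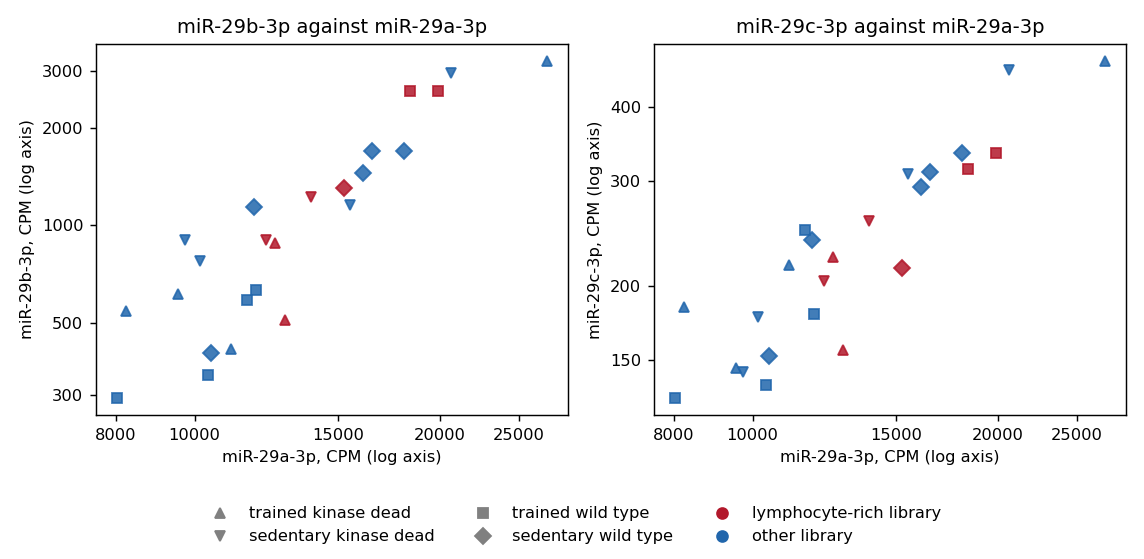
Each symbol is 1 library on log axes of CPM, with its shape giving the group and red marking the lymphocyte-rich libraries. miR-29b-3p climbs more steeply with miR-29a-3p (slope 1.92 on the log2 scale in the 17 blue libraries) than miR-29c-3p does (slope 1.16), and trained kinase dead replicate 2 is at the top right of both panels.

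Against other miRNAs the spread of miR-29b-3p was wide. Its SD within groups was 1.02 on the log2 CPM scale, against 0.57 for miR-29c-3p, 0.46 for miR-29a-3p and a median of 0.33 over the 205 tested sequences with a mean of at least 100 CPM, among which the 3 rank 12, 35 and 43. The 11 with a larger spread include the lymphocyte miRNAs miR-142a-5p, miR-142a-3p, miR-150-5p and miR-155-5p and the muscle miRNAs miR-1a-3p and miR-133a-3p. The others, miR-142b, miR-193a-3p, miR-378b, miR-1b-5p and miR-151-5p, are in none of the marker lists. The lymphocyte miRNA miR-342-3p varied less than miR-29b-3p, at 0.97, and miR-181a-5p and miR-181b-5p of that list varied less still. Counting error accounts for an SD of 0.0209 for miR-29b-3p and 0.00538 for miR-29a-3p on that scale. miR-29b-3p lay between 511 and 2603 CPM in the lymphocyte-rich libraries (median 1227) and between 293 and 3223 CPM in the others (median 778). Both sets spanned most of the range, and the part of lymphocyte content in the spread was not tested.

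Depth moved with the level in part. In the 17 libraries, log2 total reads had r = -0.559 with miR-29a-3p (permutation p = 0.0204, adjusted 0.0448) and r = -0.496 with miR-29b-3p (permutation p = 0.0437, adjusted 0.0777), with rho = -0.578 and -0.598 (permutation p = 0.0175 and 0.0129, adjusted 0.0467 and 0.0413). Without the 2 libraries of most extreme total, r was -0.336 and -0.294 and rho -0.414 and -0.443 (n = 15), nearer 0 and in the same direction. In the 7 lymphocyte-rich libraries r was 0.101 and 0.249 (exact permutation p = 0.807 and 0.567). Trained kinase dead replicate 2 had 2286275 reads and sedentary kinase dead replicate 2 had 7254410. Depth also differed by training among the libraries that are not lymphocyte-rich. Trained wild type libraries had 9083019 to 13157244 reads. Sedentary wild type libraries had 1601209 to 6104042, except replicate 6 with 20894237. Trained kinase dead libraries had 9150068 to 23593237 reads, except replicate 2, and sedentary kinase dead libraries 2607927 to 8731821. The part of depth in the spread and in the fold changes of training was not tested beyond this.

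Marker sums are given for the 2 libraries with the most miR-29b-3p. Trained kinase dead replicate 2 held 1362 CPM of the striated muscle list, within the 728 to 2359 CPM of its group, and 5819 CPM of the lymphocyte list, above the 4007, 4011 and 4576 CPM of the other 3 libraries of its group that are not lymphocyte-rich. Its adipose list, at 227237 CPM, was the highest of its group, where the next library held 201439 CPM. Its endothelium list, at 44510 CPM, lay within the 40180 to 62325 CPM of its group. The part of these markers in its miR-29 level was not tested. Sedentary kinase dead replicate 2 held 8488 CPM of the muscle list, the highest of all libraries, and 5483 CPM of the lymphocyte list. Its red cell list, at 4572 CPM, was the highest of its group, where the next library held 2231 CPM. Its adipose list, at 196583 CPM, lay within the 120063 to 231252 CPM of its group. The part of these markers was not tested here either.

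The 5p arms were scarce, and 2 of them, miR-29c-5p and miR-29b-2-5p, varied less over the libraries than any 3p arm. miR-29c-5p averaged 16.4 ± 2.68 CPM, miR-29a-5p 11.1 ± 3.42 CPM, miR-29b-2-5p 6.51 ± 1.31 CPM and miR-29b-1-5p 2.13 ± 0.594 CPM (SD, n = 24). The highest library exceeded the lowest 1.82-fold for miR-29c-5p and 2.26-fold for miR-29b-2-5p, against 11-fold for miR-29b-3p and 3.71-fold for miR-29c-3p. miR-29a-5p ranged 5.57-fold (SD 0.55 on the log2 scale) and miR-29b-1-5p 4.10-fold (SD 0.45), against an SD of 0.54 for miR-29c-3p. The lowest library had 5 reads of miR-29a-5p, with an exact Poisson interval of 1.62 to 11.7, and 2 reads of miR-29b-1-5p. Counting alone would give an SD of 0.15 for miR-29c-5p, where 0.23 was seen, of 0.26 for miR-29b-2-5p, where 0.30 was seen, and of 0.48 for miR-29b-1-5p, on the log2 scale.

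The 2 arms of a hairpin did not keep a fixed ratio. miR-29c-5p made up between 3.77% and 11.6% of the reads of both arms of Mir29c, and the low end was sedentary kinase dead replicate 2. In the 17 libraries that are not lymphocyte-rich, miR-29c-5p and miR-29c-3p had r = 0.635 and rho = 0.669 (permutation p = 0.00671 and 0.00415, adjusted 0.0179 and 0.0166), and r = 0.638 without the 2 farthest libraries. Neither miR-29a-5p with miR-29a-3p (r = 0.0274, permutation p = 0.918) nor miR-29b-2-5p with miR-29b-3p (r = -0.381, permutation p = 0.132) showed a relation there. Without the 2 farthest libraries their r was 0.361 and -0.133. Because miR-29b-3p sums both copies, the last pair is not the 2 arms of a single hairpin. In the 7 lymphocyte-rich libraries r was -0.0291, 0.479 and 0.29 for the 3 pairs in that order (exact permutation p = 0.929, 0.263 and 0.507). Few reads of the 5p arms limit these values.

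**Figure D5:**
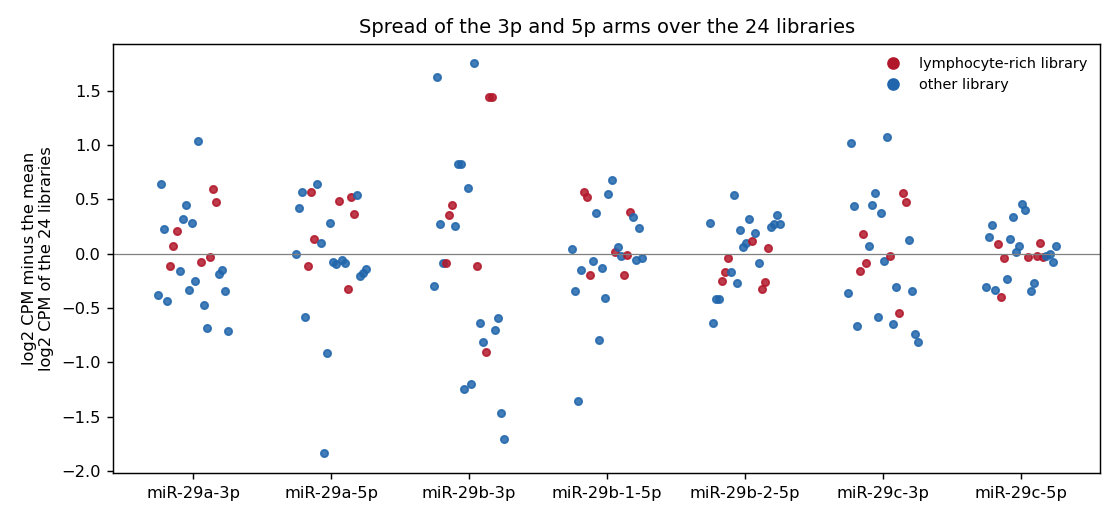
Each point is 1 library's log2 CPM minus the mean log2 CPM of the 24 libraries, for the 3p and 5p arms of the family, with lymphocyte-rich libraries in red. miR-29b-3p spreads the widest of the 7 (SD 1.00 over the libraries), while miR-29c-5p (SD 0.23) and miR-29b-2-5p (SD 0.30) stay close to 0.

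Which hairpin the miR-29b-3p reads came from is not shown by their own counts. Between 49.0% and 51.3% of them were counted at the copy on chromosome 1 in every library, or 109054 of the reads there and 106978 at the copy on chromosome 6, a near-even split of identical sequences. The 5p arms, which differ, gave 1379 reads of miR-29b-2-5p and 449 of miR-29b-1-5p over all libraries, a ratio of 3.07, and miR-29b-2-5p led in 24 of 24. A 5p arm's level also depends on its own decay, so this ratio is not the ratio of the hairpins. By edgeR, no 5p arm passed the threshold in any comparison (0 of 4, background 0%). The largest shifts were a log2 fold change of -0.41 for miR-29a-5p in the difference of the training effects (SE 0.39), -0.31 for miR-29b-2-5p for kinase dead over wild type among sedentary mice (SE 0.18) and 0.31 for miR-29b-1-5p for training in wild type (SE 0.24), with adjusted p = 0.993, 0.991 and 0.860.

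Some other miRNAs varied over the libraries much as the members did. Likeness was taken as the SD of the log2 ratio to the member over 24 libraries, among 202 tested sequences with a mean of at least 100 CPM. For miR-29b-3p the closest was miR-15a-5p, a miRNA known for restraining the cell cycle, at 0.33 against a median of 1.07 over the 202, closer than miR-29c-3p at 0.58 or miR-29a-3p at 0.64. miR-15a-5p ranged from 171 to 1309 CPM, highest in trained kinase dead replicate 2 and lowest in trained wild type replicate 6, the same 2 libraries as for miR-29b-3p. Next came miR-181c-5p at 0.49 and miR-151-5p at 0.59. For miR-29a-3p the closest were miR-98-5p of the let-7 family at 0.30, miR-181a-5p at 0.30 and miR-107-3p at 0.32, none as close as miR-29c-3p at 0.23. That last value may carry miscounting between sequences that differ by a single base. For miR-29c-3p they were miR-141-3p of the epithelial miR-200 family at 0.33, miR-22-3p at 0.34 and miR-130a-3p at 0.38.

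Of base composition, miR-29b-3p has 8 G or C bases of 23 (34.8%), miR-29c-3p 8 of 22 (36.4%) and miR-29a-3p 9 of 22 (40.9%), against a median of 45.5% over the 175 abundant sequences with a RefSeq sequence. The order of the members by spread is thus the reverse of their order by GC content. The 32 sequences with no more GC than miR-29c-3p had a median SD within groups of 0.40 on the log2 scale, and the other sequences 0.32. The part of base composition in the spread was not tested.

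As with every sequence tested, no other miRNA reported to act on the processes the family is known for passed the test. Of 16 linked to fibrosis, all were tested and 0 were called in either direction in any comparison. The background was 0% of all 582 sequences, so the count does not set the list apart. The list mixes miRNAs reported to promote and to restrain collagen deposition, so a median over it has no direction for fibrosis. The median log2 fold change of the 16 was 0.08 for training in kinase dead and 0.10 for training in wild type. Over all sequences it was 0.01 in both. miR-378a-3p, which is made from the Ppargc1b gene and is abundant in fat, had 0.39 (SE 0.15, adjusted p = 0.779 by edgeR) for training in wild type. It was the only list member with an unadjusted p under 0.05 by edgeR in that comparison. The fibrosis list also holds the muscle miRNA miR-133a-3p, with a log2 fold change of -1.44 (SE 0.68, adjusted p = 0.996 by edgeR) for kinase dead over wild type among trained mice, where the summed muscle markers ran from 728 to 2359 CPM in kinase dead and from 1144 to 6081 CPM in wild type. Those sums include miR-133a-3p itself, and the part of the other muscle markers in its fold change was not tested. miR-133a-3p was the only list member with an unadjusted p under 0.05 by edgeR among trained mice.

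Of 14 miRNAs linked to insulin signalling and 6 linked to DNA methylation and demethylation, 0 were called in either direction in any comparison. The background was again 0% of all 582 sequences. The list medians were 0.03 and -0.10 for training in kinase dead and -0.04 and -0.06 for training in wild type. Over all sequences the median was 0.01 in both. Neither list was drawn up by direction of action. In the insulin list, miR-146b-5p had a log2 fold change of -0.59 (SE 0.23, adjusted p = 0.779 by edgeR) and miR-320-3p one of 0.31 (SE 0.14, adjusted p = 0.779 by edgeR) for training in wild type. They were the 2 members of that list with an unadjusted p under 0.05 by edgeR in that comparison.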

How the data were processed

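The submitters' processing notes name CASAVA 1.8.2, Trim Galore, Bowtie2, featureCounts and the build mm10. Not given in the sources used here are the annotation that was counted and the handling of strand, overlaps and reads that map to several places. RNA was extracted with TRIzol and libraries made with a NEBNext small RNA kit, per the labels' protocols. The authors deposited raw read counts for 2045 mature miRNA loci, 1 column per library, without normalization. Because miR-29a-3p and miR-29c-3p differ by 1 base, misassignment between them cannot be measured from counts.

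Loci were named by RefSeq coordinates (1670) or by GENCODE hairpin (375), and loci of the same mature sequence were summed into 1907 features. edgeR 4.0.16 (R 4.3.3) fitted the 4 groups together with TMM factors. filterByExpr kept 582 features, and those below it held 0.015% of the reads. The quasi-likelihood test used Benjamini-Hochberg adjustment at 0.05. DESeq2 1.42.0 was an alternative. Shares were tested by two-sided exact permutation over all splits of 6 against 6 (scipy). Log2 ratios for likeness used a pseudocount of 0.5 CPM. The fit was also run on simulated counts with the same dispersion for every sequence. That checks the code and does not measure its power for a sequence as variable as miR-29b-3p.

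The members and all lists were chosen with earlier results of these data known. Named besides the members and their 5p arms are the 3 sequences most like each member, list members and, as examples picked after their values were seen, the most variable sequences. Replicate numbers follow accession order and pair nothing.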

Additional observations from a re-analysis of the deposited data

Results flagged for a closer look

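In 11 of 44 checks of a group of 6 libraries for a value far from the other 5, a library stood apart. Chance flags about 1 in 20 groups, and the checks are not independent, since the members move together and their shares sum to a whole. Several of the 11 are the same library.

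Trained kinase dead replicate 2 stood above its group for all members. It held 27051 CPM of miR-29a-3p (the others 8229 to 12912), 3223 CPM of miR-29b-3p (416 to 885), 479 CPM of miR-29c-3p (145 to 223) and 30752 CPM of the family (8957 to 13657). In sedentary kinase dead replicate 2, miR-29b-3p stood at 2965 CPM (the others 778 to 1227) and at 12.3% of the family's reads (6.76% to 8.35%), and miR-29a-3p at 85.7% (90.3% to 91.7%). Sedentary wild type replicate 5 was low, with miR-29b-3p at 3.66% of the family (the others 7.78% to 9.15%) and miR-29a-3p at 94.96% (89.2% to 90.9%). In trained wild type replicate 3, miR-29c-3p stood at 2.0% of the family (the others 1.25% to 1.53%). In trained kinase dead replicate 3, miR-29a-5p stood at 14.7 CPM (the others 8.40 to 10.1).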

How the results depend on the processing

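Under RLE factors, library totals alone, DESeq2, no filter on low counts, unsummed loci, fits of only the 2 groups compared, a lymphocyte score as covariate, the fit without the 7 lymphocyte-rich libraries and the 24 fits without 1 library each, no comparison gave any call and no member an adjusted p under 0.344. Most fold changes lie near 0, so their sign is loosely held. No paired analysis was possible because the replicate numbers are in accession order and pair nothing. For all turns of direction below, the cause was not tested.

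Without the lymphocyte-rich libraries, miR-29b-3p turned to 1.10 for the difference of the training effects and to 1.29 for kinase dead over wild type among trained mice (log2 fold changes). In the same setting the share of miR-29c-3p turned to 0.0527 points for training in kinase dead, and kinase dead minus wild type among trained mice turned to -2.60 points for miR-29a-3p and 2.43 points for miR-29b-3p. With the lymphocyte score, the log2 fold change turned to 0.0033 for miR-29a-3p for training in kinase dead, to 0.0768 for miR-29b-3p in the difference of the training effects, to -0.0020 for miR-29c-3p for genotype among sedentary mice and to 0.0935 for miR-29b-3p for genotype among trained mice. With no filter, miR-29c-3p had -0.022 in the difference of the training effects. Taken as a log2 ratio to miR-29b-3p, miR-29c-3p had 0.457 for training in kinase dead, 0.295 for training in wild type and -0.0701 for genotype among sedentary mice, the opposite sign to its share.

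Leaving out 1 library at a time moved the shares, in percentage points, over these ranges. For training in kinase dead they were 1.31 to 3.07 for miR-29a-3p, -3.04 to -1.33 for miR-29b-3p and -0.123 to 0.0574 for miR-29c-3p, and the first 2 passed the threshold only without trained kinase dead replicate 2. That library was the only one of its group within the sedentary range, so leaving it out fixes that outcome. For training in wild type they were 0.287 to 2.14 for miR-29a-3p and -2.10 to -0.286 for miR-29b-3p, with the widest differences without trained wild type replicate 2, and neither passed the threshold. For genotype among sedentary mice they were -0.961 to 0.244 for miR-29a-3p and -0.254 to 0.874 for miR-29b-3p. For genotype among trained mice they were -0.589 to 1.39 for miR-29a-3p, -1.49 to 0.510 for miR-29b-3p and -0.0023 to 0.182 for miR-29c-3p.

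Among log2 fold changes, that of miR-29b-3p for training in kinase dead moved the most without a change of sign, over -1.11 (without trained kinase dead replicate 2) to -0.042 (without sedentary kinase dead replicate 2). Those that changed sign when 1 library was left out had these ranges. For training in kinase dead they were -0.30 to 0.049 for miR-29a-3p and -0.45 to 0.0031 for miR-29c-3p, and for training in wild type -0.57 to 0.012 for miR-29b-3p. For the difference of the training effects they were -0.18 to 0.25 for miR-29a-3p, -1.01 to 0.14 for miR-29b-3p and -0.26 to 0.22 for miR-29c-3p. For genotype among sedentary mice they were -0.17 to 0.0069 for miR-29a-3p, -0.29 to 0.20 for miR-29b-3p and -0.15 to 0.15 for miR-29c-3p, and among trained mice -0.26 to 0.19, -0.95 to 0.24 and -0.24 to 0.23 for the same members. Counting error was small beside the spread of the members, with 389 reads or more each. It does limit miR-29b-1-5p, which had 2 reads in its lowest library. The part of depth in the members' levels and in the fold changes of training was not tested beyond the relations to total reads given above.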
